A study of Mus musculus with 12 samples.

Results

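The 9 genes described here encode the coreceptors of T cells (Cd4, Cd8a and Cd8b1), the signalling proteins that act closest to the T cell receptor (Lck, Zap70, Lat and Themis) and a pair of related surface receptors that tune that signal (Cd5 and Cd6). They were chosen by symbol from the 55401 genes of the deposited count table, where each symbol matched 1 gene. All 9 passed edgeR's default filter on low counts, which left 16915 genes, with 101 to 1958 reads per gene and library. RNA came from peritoneal lavage of C57BL/6J mice, taken with 8 mL of saline. The ID8-FSHR mice had received ID8 (defb29/Vegf-a) FSHR cells by intraperitoneal injection 7 days before. ID8 is an ovarian cancer line of mouse origin, here with added Defb29, a beta-defensin, and Vegf-a, a growth factor for vessels, and FSHR stands for the receptor of follicle-stimulating hormone. The ID8 mice had received the ID8 (defb29/Vegf-a) line itself at the same time, and the uninjected mice received nothing. Each group held 4 libraries, and no group was injected without tumour cells. The number of injected cells stands as 4000000 in the series text and 5000000 in the sample protocol. The sources used here do not state the age of the mice. The labels call the material of the injected groups a cell line, while the protocol describes lavage cells, in which host and tumour cells are mixed.

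Coreceptors bind major histocompatibility complex (MHC) molecules on the cell that presents antigen, CD4 to class II and CD8 to class I, and carry the kinase Lck to the T cell receptor. Lck phosphorylates the CD3 chains, Zap70 docks on them and phosphorylates the scaffold Lat, and Lat gathers the enzymes that pass the signal on. Themis supports signalling in developing and mature T cells, and CD5 and CD6, neighbours in the genome and members of the scavenger receptor cysteine-rich family, mostly restrain it. Several of these genes are not private to T cells. In mice Lck, Zap70 and Lat are also made by natural killer (NK) cells, Lat by mast cells, Cd4 and Cd8a by some dendritic cells, and Cd5 by B-1a cells, an innate-like B cell type of the peritoneal cavity. In bulk RNA, fewer T cells and less RNA per T cell cannot be told apart, and a lower share can also go with more RNA from other cells.

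Total counts ranged from 47419608 to 64333677 per library. ID8-FSHR replicate 2 stood apart, with a mean correlation with the uninjected libraries of 0.914, against 0.868 to 0.880 in the other 7 tumour libraries, and with the lowest sum of mesothelial and tumour genes of these 8 libraries. Uninjected replicate 1 was the lowest and uninjected replicate 2 the highest of its group for all 9 genes. Levels are CPM, reads per 1000000 counted reads on the effective library size. Differences are log2 fold changes with the standard error (SE) of edgeR's quasi-likelihood fit over all 12 libraries, and a gene is called higher or lower where its Benjamini-Hochberg adjusted p over all 16915 genes is under 0.05. The series text calls the libraries of a group biological replicates, and the labels name no animals, so p-values measure the spread between these libraries.

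In lavage from ID8 mice all 9 genes were lower than in lavage from uninjected mice, with log2 fold changes between -2.10 for Cd5 and -1.04 for Cd8a. In ID8-FSHR lavage only Cd5 among them was called lower, and the other 8 lay near the uninjected level. Set directly against ID8, ID8-FSHR lavage had higher Lck, Zap70, Lat and Cd5, while the coreceptors, Themis and Cd6 had folds in the same direction that missed the threshold. Among the uninjected libraries the genes spread widely, so most of the falls rest on groups that overlap.

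**Figure D1:**
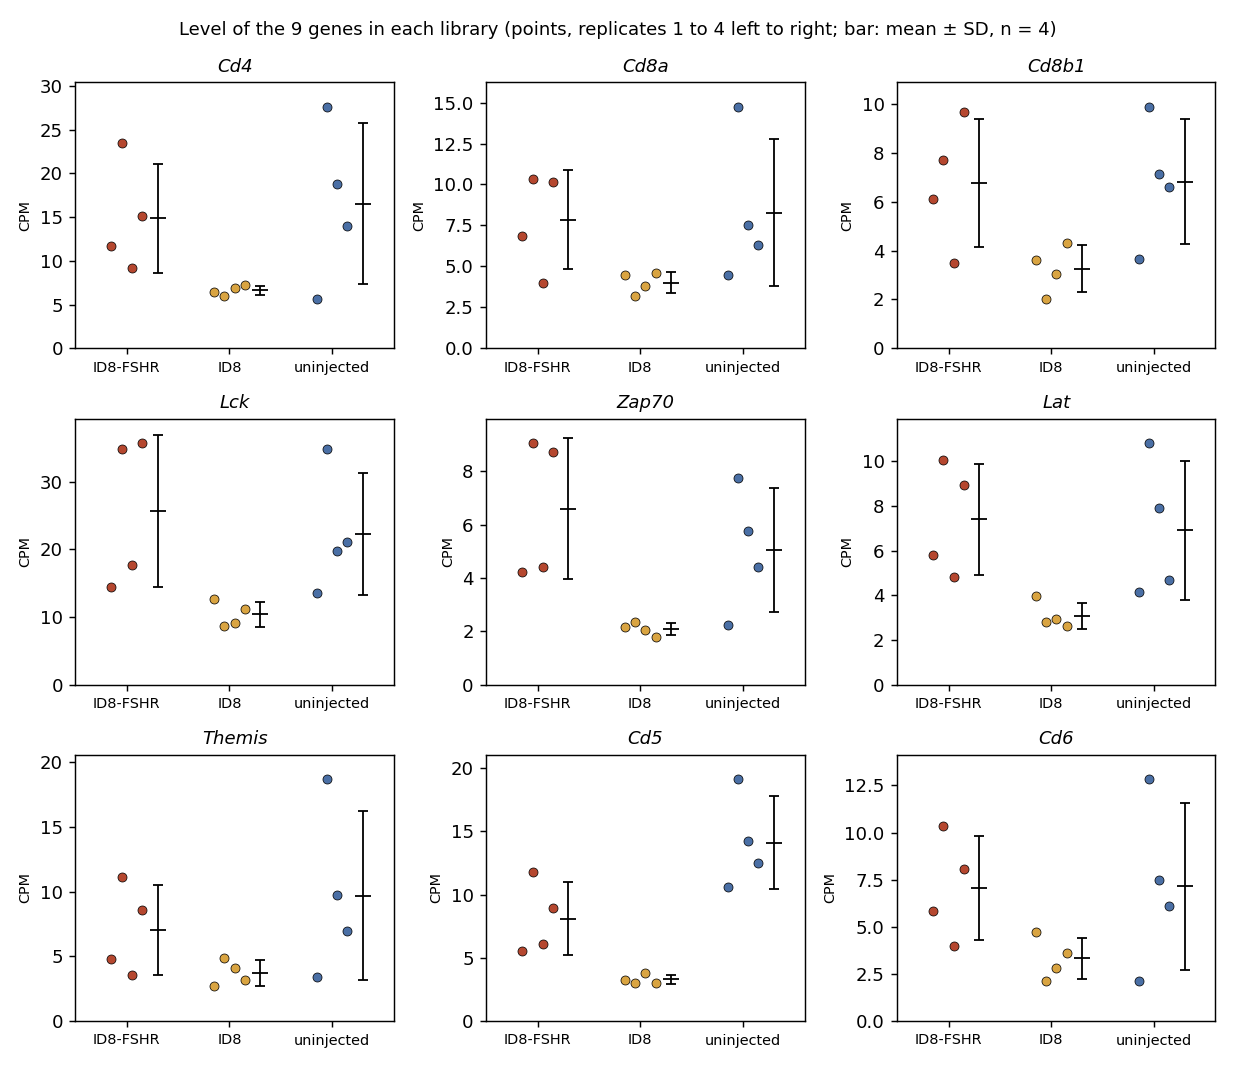
Level of each of the 9 genes in every library, in CPM on a linear axis that starts at 0. Points are libraries, in the order of their replicate numbers, and bars give the mean ± SD of 4. The ID8 points lie close together and low in each panel, while the ID8-FSHR and uninjected points spread over a wide range. Cd5 is the gene in which the uninjected points lie highest relative to the other groups.

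Sequences upstream of 4 of the genes are shown because these are the 4 that differed between ID8-FSHR and ID8. They are RefSeq windows on GRCm38.p6 of 250 bases before to 50 bases after a start site, found for 6 of the 9 genes (10 windows), written 5′ to 3′ on the gene's strand. Cd4, Cd8b1 and Cd6 were not among the windows. The Lck window, at chr4:129573592-129573891 on the minus strand, is the upstream one of a pair in the table. The Zap70 window, the first of 3 for that gene, lies at chr1:36761548-36761847 on the plus strand. The Lat window lies at chr7:126369519-126369818 on the minus strand, and the Cd5 window at chr19:10738925-10739224 on the minus strand. Capitals mark TGTGGT, the core bound by RUNX factors, and GGAAGT, a core bound by ETS factors, on either strand.
Lck: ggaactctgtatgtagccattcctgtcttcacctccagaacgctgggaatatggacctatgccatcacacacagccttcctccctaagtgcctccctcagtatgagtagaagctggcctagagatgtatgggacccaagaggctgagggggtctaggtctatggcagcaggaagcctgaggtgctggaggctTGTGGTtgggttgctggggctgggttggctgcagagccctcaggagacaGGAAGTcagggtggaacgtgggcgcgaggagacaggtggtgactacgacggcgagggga
Zap70: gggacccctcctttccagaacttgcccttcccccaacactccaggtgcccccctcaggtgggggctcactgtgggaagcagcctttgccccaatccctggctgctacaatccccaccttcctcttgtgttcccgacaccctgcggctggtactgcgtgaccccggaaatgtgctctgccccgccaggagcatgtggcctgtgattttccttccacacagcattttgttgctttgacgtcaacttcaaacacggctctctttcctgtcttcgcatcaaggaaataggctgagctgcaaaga
Lat: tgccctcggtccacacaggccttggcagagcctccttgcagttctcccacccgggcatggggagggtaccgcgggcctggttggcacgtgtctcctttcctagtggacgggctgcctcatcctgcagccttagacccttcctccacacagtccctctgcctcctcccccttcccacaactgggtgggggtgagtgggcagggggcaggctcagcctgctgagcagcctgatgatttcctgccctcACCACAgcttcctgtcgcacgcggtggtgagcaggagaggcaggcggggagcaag
Cd5: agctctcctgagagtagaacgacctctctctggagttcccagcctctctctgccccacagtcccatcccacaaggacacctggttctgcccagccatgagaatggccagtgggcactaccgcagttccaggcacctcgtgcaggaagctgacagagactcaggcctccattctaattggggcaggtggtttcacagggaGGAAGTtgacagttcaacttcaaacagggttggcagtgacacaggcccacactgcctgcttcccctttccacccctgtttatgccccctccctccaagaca

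The RUNX core stands in 3 of the 10 windows of these genes and the ETS core in 4, against 16.7% and 23.7% of all 32544 distinct promoter windows. The Lck window holds both, the Lat window the RUNX core, the Cd5 window the ETS core, and this Zap70 window neither, while the second of the 3 Zap70 windows, not printed, holds both. The same windows were also searched for an E-box (CAGCTG, in 16.4% of all windows), a GATA site (AGATAA, 11.2%), a TCF/LEF site (CTTTGA, 16.0%) and a TATA box (TATAAA, 13.6%). Of these the 4 printed windows hold 1 match, CTTTGA in that of Zap70. The motif letters do not overlap one another, and a match describes the letters only.

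The coreceptors come first. Cd4 (ENSMUSG00000023274.14, chromosome 6, 124864692 to 124888221, minus strand of GRCm38) was measured at 11.7, 23.5, 9.22 and 15.2 CPM in ID8-FSHR replicates 1 to 4, 6.38, 6.03, 6.85 and 7.27 CPM in ID8 replicates 1 to 4, and 5.66, 27.6, 18.8 and 14.0 CPM in uninjected replicates 1 to 4. Every ID8-FSHR library lay above every ID8 library, and the uninjected libraries ran from below the lowest ID8 value to above the highest ID8-FSHR value. The log2 fold change was -1.32 (SE 0.39, edgeR adjusted p = 0.00947) for ID8 against uninjected, -0.15 (SE 0.38, edgeR adjusted p = 0.741) for ID8-FSHR against uninjected, and 1.17 (SE 0.39, edgeR adjusted p = 0.0697) for ID8-FSHR against ID8. The last of these was called with DESeq2 (adjusted p = 0.0138), in a fit of only these 2 groups (0.0252) and without uninjected replicate 1 (0.0238).

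Cd8a encodes the chain that CD8 homodimers and heterodimers share, and Cd8b1 the partner found in the heterodimer of conventional cytotoxic T cells. Cd8a (ENSMUSG00000053977.13, chromosome 6, 71373427 to 71379173, plus strand) stood at 6.86, 10.3, 3.99 and 10.2 CPM in ID8-FSHR replicates 1 to 4, 4.47, 3.20, 3.82 and 4.57 CPM in ID8 replicates 1 to 4, and 4.50, 14.8, 7.56 and 6.32 CPM in uninjected replicates 1 to 4. Cd8b1 (ENSMUSG00000053044.8, chromosome 6, 71322788 to 71337494, plus strand), which ends 35932 bases before Cd8a begins, stood at 6.12, 7.72, 3.51 and 9.67 CPM in ID8-FSHR replicates 1 to 4, 3.61, 2.04, 3.05 and 4.31 CPM in ID8 replicates 1 to 4, and 3.65, 9.89, 7.13 and 6.60 CPM in uninjected replicates 1 to 4. For both genes ID8-FSHR replicate 3 lay inside the ID8 range and uninjected replicate 1 did too, so neither comparison with ID8 was free of overlap. Cd8a was lower in ID8 than in uninjected lavage by a log2 fold change -1.04 (SE 0.36, edgeR adjusted p = 0.0215), and Cd8b1 by -1.07 (SE 0.34, edgeR adjusted p = 0.0159). ID8-FSHR against uninjected gave -0.08 (edgeR adjusted p = 0.855) for Cd8a and -0.01 (edgeR adjusted p = 0.975) for Cd8b1, with 95% intervals of -0.84 to 0.68 and -0.75 to 0.72. ID8-FSHR against ID8 gave 0.96 (edgeR adjusted p = 0.0992) for Cd8a and 1.05 (edgeR adjusted p = 0.0665) for Cd8b1. Those were called with DESeq2 (adjusted p = 0.0386 for Cd8a and 0.0172 for Cd8b1) and without ID8-FSHR replicate 3 (0.0483 and 0.0325).

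The balance of the coreceptors did not differ detectably. Cd8a counts per 100 Cd4 counts were 58.9, 44.1, 43.3 and 67.0 in ID8-FSHR replicates 1 to 4, 70.1, 53.2, 55.8 and 62.9 in ID8 replicates 1 to 4, and 79.4, 53.4, 40.2 and 45.0 in uninjected replicates 1 to 4. The groups overlapped, with means of 53.3 ± 11.6 in ID8-FSHR, 60.5 ± 7.59 in ID8 and 54.5 ± 17.5 in uninjected lavage (SD, n = 4 each). The log2 ratio differed by 0.19 between ID8 and uninjected (exact permutation p = 0.457, adjusted p = 0.653) and by -0.20 between ID8-FSHR and ID8 (exact permutation p = 0.314, adjusted p = 0.464). Cd8b1 counts per 100 Cd8a counts averaged 86.7 ± 8.66 in ID8-FSHR, 79.6 ± 12.6 in ID8 and 86.8 ± 16.3 in uninjected lavage. An exact test of 4 libraries against 4 cannot go below p = 0.0286, and the p-values of ratios were adjusted over the 20 ratios of a comparison. A ratio at that smallest p passes the adjustment only if most of the 20 ratios reach it too. The adjusted p-values therefore cannot decide whether a single ratio differs.

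Among the signalling proteins Lck, the kinase that starts the cascade, had the highest level per length in all 3 groups: 8.77 ± 3.82 CPM per kb of exon in ID8-FSHR, 3.55 ± 0.638 in ID8 and 7.61 ± 3.07 in uninjected lavage (SD, n = 4 each). Lck (ENSMUSG00000000409.14, chromosome 4, 129548344 to 129573641, minus strand) was measured at 14.4, 34.8, 17.7 and 35.7 CPM in ID8-FSHR replicates 1 to 4, 12.7, 8.65, 9.12 and 11.2 CPM in ID8 replicates 1 to 4, and 13.6, 34.9, 19.7 and 21.0 CPM in uninjected replicates 1 to 4. Every ID8 library lay below every library of the other groups. ID8-FSHR replicates 2 and 4 were at the level of the highest uninjected library, and ID8-FSHR replicates 1 and 3 near the lower ones. Lck was lower in ID8 than in uninjected lavage, at -1.10 (SE 0.32, edgeR adjusted p = 0.0094), and higher in ID8-FSHR than in ID8, at 1.30 (SE 0.32, edgeR adjusted p = 0.0226). ID8-FSHR against uninjected gave 0.20 (edgeR adjusted p = 0.594).

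Zap70 (ENSMUSG00000026117.10, chromosome 1, 36761798 to 36782818, plus strand), the kinase that docks on the phosphorylated CD3 chains, stood at 4.22, 9.07, 4.41 and 8.71 CPM in ID8-FSHR replicates 1 to 4, 2.15, 2.36, 2.03 and 1.79 CPM in ID8 replicates 1 to 4, and 2.25, 7.75, 5.78 and 4.42 CPM in uninjected replicates 1 to 4. The ID8 and ID8-FSHR libraries did not overlap, with the lowest ID8-FSHR value at 4.22 CPM and the highest ID8 value at 2.36 CPM. Zap70 had the largest fold of the 9 genes between the tumour groups, 1.67 (SE 0.36, edgeR adjusted p = 0.0109), and was lower in ID8 than in uninjected lavage, at -1.28 (SE 0.35, edgeR adjusted p = 0.0067). Against uninjected, ID8-FSHR gave 0.38 (edgeR adjusted p = 0.342).

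Lat (ENSMUSG00000030742.7, chromosome 7, 126363824 to 126369570, minus strand), the membrane scaffold that Zap70 phosphorylates, was measured at 5.79, 10.1, 4.83 and 8.93 CPM in ID8-FSHR replicates 1 to 4, 3.95, 2.80, 2.93 and 2.64 CPM in ID8 replicates 1 to 4, and 4.16, 10.8, 7.92 and 4.71 CPM in uninjected replicates 1 to 4. The ID8 values lay below all values of the other groups here too. Its log2 fold change was -1.16 (SE 0.32, edgeR adjusted p = 0.00611) in ID8 against uninjected, 0.10 (SE 0.31, edgeR adjusted p = 0.797) in ID8-FSHR against uninjected and 1.26 (SE 0.32, edgeR adjusted p = 0.0239) in ID8-FSHR against ID8. In that last comparison the Lck and Lat calls depended on single libraries. Without ID8 replicate 2, 3 or 4 the adjusted p was 0.0548, 0.0731 and 0.0600 for Lck, and 0.0542, 0.0714 and 0.0783 for Lat. Without ID8-FSHR replicate 2 or 4 it was 0.0787 and 0.0687 for Lck, and 0.0512 and 0.0666 for Lat. Lck also missed the threshold with limma-voom (0.0513) and with no filter on low counts (0.0792). The calls of Zap70 and Cd5 held in all 20 alternative fits, with an adjusted p of at most 0.0425 and 0.0224.

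Themis (ENSMUSG00000049109.15, chromosome 10, 28668360 to 28883818, plus strand), a regulator first known from thymocyte selection, had the lowest level per length of the 9 genes in all 3 groups. It stood at 4.79, 11.1, 3.55 and 8.60 CPM in ID8-FSHR replicates 1 to 4, 2.69, 4.90, 4.12 and 3.13 CPM in ID8 replicates 1 to 4, and 3.41, 18.7, 9.72 and 6.93 CPM in uninjected replicates 1 to 4. The uninjected values enclosed all ID8-FSHR values, and the ID8 and ID8-FSHR values overlapped. Themis was lower in ID8 than in uninjected lavage, at -1.39 (SE 0.47, edgeR adjusted p = 0.0195), and gave -0.47 (edgeR adjusted p = 0.384) for ID8-FSHR against uninjected and 0.92 (edgeR adjusted p = 0.213) for ID8-FSHR against ID8. An antisense gene, 4930519F09Rik, shares 153 exonic bases with it, and the strand setting of the counting is not given.

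Cd5 (ENSMUSG00000024669.8, chromosome 19, 10717116 to 10739002, minus strand), the better known of the 2 scavenger-type receptors, was measured at 5.50, 11.8, 6.09 and 8.91 CPM in ID8-FSHR replicates 1 to 4, 3.27, 3.02, 3.80 and 3.03 CPM in ID8 replicates 1 to 4, and 10.6, 19.2, 14.2 and 12.5 CPM in uninjected replicates 1 to 4. The ID8 values lay below all others, the ID8-FSHR values came next, and ID8-FSHR replicate 2 was the one that reached into the uninjected range. Cd5 fell most of the 9 genes in ID8 lavage, with log2 -2.10 (SE 0.25, edgeR adjusted p = 8.45e-06), and was the member called lower in ID8-FSHR lavage, at -0.81 (SE 0.24, edgeR adjusted p = 0.00963). Against ID8, ID8-FSHR was higher, at 1.30 (SE 0.24, edgeR adjusted p = 0.00509).

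Cd6 (ENSMUSG00000024670.17, chromosome 19, 10789341 to 10830058, minus strand) lies 50338 bases from Cd5 and encodes its closest relative among T cell receptors of this family. It stood at 5.83, 10.3, 3.97 and 8.05 CPM in ID8-FSHR replicates 1 to 4, 4.71, 2.12, 2.83 and 3.61 CPM in ID8 replicates 1 to 4, and 2.11, 12.8, 7.50 and 6.12 CPM in uninjected replicates 1 to 4. Unlike Cd5, it had its lowest value of all 12 libraries in an uninjected mouse, replicate 1, level with ID8 replicate 2. Its fall in ID8 lavage, -1.10 (SE 0.45, edgeR adjusted p = 0.0472), was close to the threshold, and 14 of 20 alternative fits missed it. Among those that leave out 1 library, the adjusted p was 0.117, 0.103 and 0.0774 without ID8 replicate 2, 3 or 4, and 0.0528, 0.0757 and 0.0576 without ID8-FSHR replicate 1, 2 or 4. It was 0.205, 0.0832 and 0.0596 without uninjected replicate 2, 3 or 4. ID8-FSHR gave -0.02 (edgeR adjusted p = 0.97) against uninjected and 1.08 (edgeR adjusted p = 0.137) against ID8. Of the CD6 ligands, Alcam, an adhesion molecule, averaged 104 ± 44.0 CPM in ID8-FSHR, 108 ± 7.67 in ID8 and 125 ± 10.5 in uninjected lavage (SD, n = 4 each), with log2 fold changes of -0.06 (edgeR adjusted p = 0.888) for ID8-FSHR against ID8 and -0.21 (edgeR adjusted p = 0.393) for ID8 against uninjected. The other, Cdcp1, was at or below 0.18 CPM in every library and did not pass the filter.

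**Figure D2:**
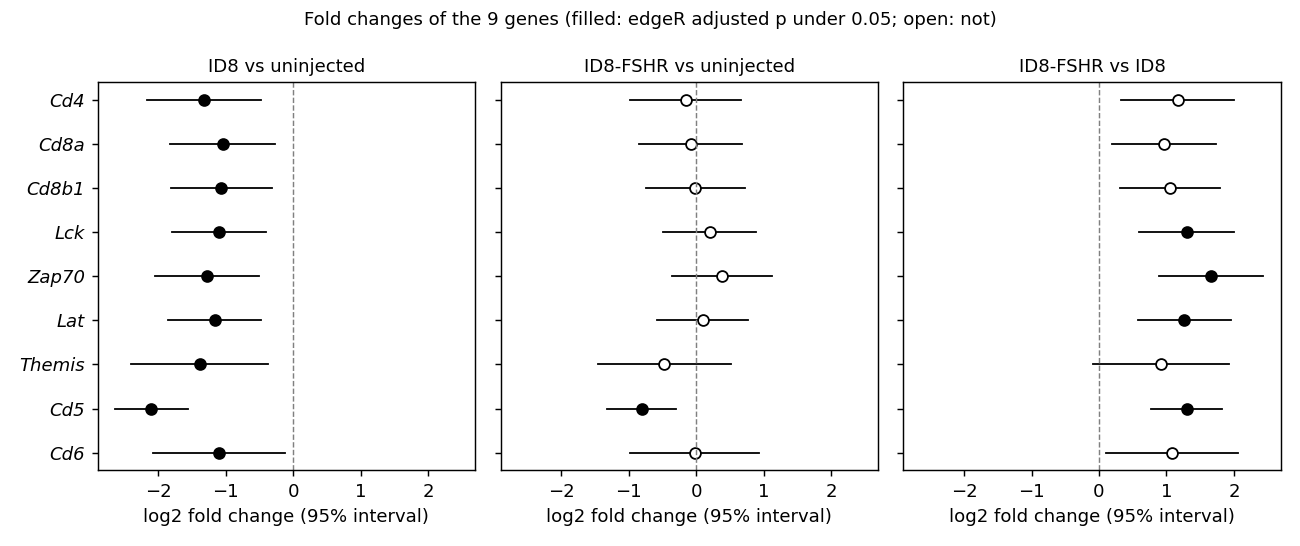
Log2 fold change of each gene with its 95% interval in the 3 comparisons; filled points have an edgeR adjusted p under 0.05. All 9 points are filled and left of 0 for ID8 against uninjected, 1 point (Cd5) is filled for ID8-FSHR against uninjected, and 4 points (Lck, Zap70, Lat and Cd5) are filled right of 0 for ID8-FSHR against ID8.

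Counted together, 9 of 9 genes were lower and 0 higher in ID8 than in uninjected lavage, where 31.4% of all tested genes were lower and 32.7% higher, and the median log2 fold change was -1.16 against -0.03 over all tested genes. DESeq2 also called 9 lower, and limma-voom 6, and 0 were higher with either tool or at an unadjusted p under 0.05. Without uninjected replicate 2, the library in which all 9 genes were highest, 5 were called (Cd4, Lck, Zap70, Lat and Cd5), and the adjusted p was 0.102 for Cd8a, 0.0588 for Cd8b1, 0.0962 for Themis and 0.205 for Cd6. Themis also missed it without ID8 replicate 1 (0.0570) or 4 (0.0517), and Cd8a without ID8 replicate 2 (0.0582). Libraries of the groups stayed apart for 3 of the 9 (Lck, Lat and Cd5), against 62.5% of all tested genes. In ID8-FSHR against uninjected 1 of 9 was lower, where 30.6% of all tested genes were, and edgeR called 0 higher, against 33.9% of all tested genes (also 0 at an unadjusted p under 0.05, 0 with DESeq2 and 0 with limma-voom). The groups overlapped for all 9, against a share of 57.0% of all tested genes that did not overlap. In ID8-FSHR against ID8, 4 of 9 were higher and 0 lower, where 6.04% of all tested genes were higher and 5.56% lower. DESeq2 called 7 and limma-voom 3, and 8 of 9 had an unadjusted p under 0.05 in edgeR, while 0 were lower by any of these. Libraries of the groups stayed apart for 5 of the 9 (Cd4, Lck, Zap70, Lat and Cd5), against 18.5% of all tested genes, and the fold was above 0 for 9 of 9, with a median of 1.16. Without ID8 replicate 2, 3 or 4, or without ID8-FSHR replicate 2 or 4, 2 of the 4 calls were left, Zap70 and Cd5, and without ID8-FSHR replicate 3 there were 6. Both comparisons with uninjected mice use the same 4 uninjected libraries.

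Set per length of exon, the order of levels was Lck, Cd8b1, Cd4 in all 3 groups, and Cd6 and Themis came last in all 3. Cd8b1 averaged 4.55 ± 1.76 CPM per kb in ID8-FSHR, 2.19 ± 0.647 in ID8 and 4.60 ± 1.72 in uninjected lavage, and Cd4 3.69 ± 1.55 in ID8-FSHR, 1.64 ± 0.134 in ID8 and 4.10 ± 2.28 in uninjected lavage (SD, n = 4 each). The gene that changed place most was Cd5, which stood in place 7 in ID8-FSHR, at 1.64 ± 0.587 CPM per kb, in place 7 in ID8, at 0.666 ± 0.0744, and in place 4 in uninjected lavage, at 2.86 ± 0.745. In ID8 lavage the ranges of Lck and Cd8b1 did not overlap, while those of Cd8b1 and Cd4, of Lat and Cd8a, of Zap70 and Cd5, and of Cd6 and Themis did. In ID8-FSHR and uninjected lavage every pair of neighbours in the order overlapped. Exon lengths cover all annotated isoforms, so the levels depend on the annotation.

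The genes moved together from library to library. Over the 12 libraries the Pearson correlation of log2(CPM + 0.5) between pairs of the 9 genes ran from 0.682 to 0.955 with a median of 0.884 (36 pairs), and from 0.668 to 0.942 once each library was set against its group mean. These points share libraries, depth and the mixture of cells, so the values are a description. Cd5 had the lowest median correlation with the other 8 genes, 0.787, against 0.836 to 0.918 for the rest. Once each library was set against its group mean, Cd5 had 0.849, inside the range of the others, and Cd8b1 was lowest at 0.785. Genes among the 3 whose pattern over the 12 libraries was most like each member are given next. For Cd4 they were Cd3e (r = 0.972) and Camk4 (0.965). For Cd8a they were Cd247 (0.945) and Trbc2 (0.945), and for Cd8b1 Trbc2 (0.933), Cd247 (0.926) and Cd3e (0.914). Lck was close to Thy1 (0.979), Txk (0.979) and Ms4a4b (0.978), Zap70 to Cd3e (0.974), Prkcq (0.971) and Skap1 (0.969), and Lat to Trbc1 (0.991), Ms4a4b (0.976) and Prkcq (0.968). Cd6 was close to Cd247 (0.961) and Trbc2 (0.942), and Themis to Cd3d (0.925), Nsg2 (0.919) and Dusp2 (0.917). Cd5 was close to Tnfrsf26 (0.974), Ipcef1 (0.970) and Rasal3 (0.970).

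RNA of the T cell receptor complex itself was present in every library. Its 7 genes (Cd3e, Cd3d, Cd3g, Cd247, Trac, Trbc1 and Trbc2) summed to 45.2 to 95.2 CPM in ID8-FSHR, 30.2 to 34.5 CPM in ID8 and 33.5 to 99.8 CPM in uninjected lavage. Of all tested genes 31.4% were lower and 32.7% higher in ID8 than in uninjected lavage. Of the 7, 6 were lower there, among them Cd3e, the shared signalling chain, at -0.94 (edgeR adjusted p = 0.0101), and Cd3g at -1.29 (edgeR adjusted p = 0.00212). Trac, the constant region of the receptor alpha chain, gave -0.56 (edgeR adjusted p = 0.126). Without uninjected replicate 2 the count was 3. In ID8-FSHR against uninjected 0 of the 7 were called in either direction by edgeR (0 at an unadjusted p under 0.05, 0 with DESeq2 and 0 with limma-voom), and 1 was higher without uninjected replicate 2. Of all tested genes 30.6% were lower and 33.9% higher in that comparison. Between ID8-FSHR and ID8, where 6.04% of all tested genes were higher, 5 of the 7 were, Cd3e at 1.10 (edgeR adjusted p = 0.0255) and Cd247 at 1.40 (edgeR adjusted p = 0.0398) among them. That count was 1 without ID8 replicate 1, 0 without ID8 replicate 2, 3 or 4 or ID8-FSHR replicate 2 or 4, and 3 without uninjected replicate 3. DESeq2 called all 7 and limma-voom 1, and all 7 had an unadjusted p under 0.05 in edgeR.

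Ratios inside a library do not depend on how libraries are scaled, and set the 9 genes against Cd3e, a measure of T cell RNA. Cd5 stood out in this measure. Cd5 counts per 100 Cd3e counts were 52.7, 69.2, 75.4 and 62.0 in ID8-FSHR replicates 1 to 4, 56.4, 52.8, 65.0 and 51.6 in ID8 replicates 1 to 4, and 186, 118, 119 and 116 in uninjected replicates 1 to 4. No library of either tumour group reached the uninjected range, and the tumour groups overlapped each other. The log2 ratio differed by -1.23 in ID8 against uninjected (exact permutation p = 0.0286, adjusted p = 0.286) and by -1.04 in ID8-FSHR against uninjected (exact permutation p = 0.0286, adjusted p = 0.143). ID8-FSHR against ID8 gave 0.19 (exact permutation p = 0.257, adjusted p = 0.429). Each of the first pair is at the smallest p that this design allows and does not pass after adjustment over 20 ratios. A single ratio at that p could not pass, so the adjusted p decides nothing here. Uninjected replicate 1, which had the least T cell RNA, had the highest Cd5 ratio.

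B cell RNA was also higher in uninjected lavage than in both tumour groups. The 9 B cell markers summed to 336 to 597 CPM in ID8-FSHR, 382 to 554 CPM in ID8 and 2942 to 3874 CPM in uninjected lavage, and all 9 were lower in each tumour group than in uninjected mice. Siglecg, a restraining receptor found on B-1 cells, averaged 18.5 ± 4.77 CPM in ID8-FSHR, 19.3 ± 3.86 in ID8 and 169 ± 17.8 in uninjected lavage (SD, n = 4 each). On the B-1 cell list 7 of 8 genes were lower and 1, Myof, higher in ID8, and 6 lower and 1 higher in ID8-FSHR. Of all tested genes 31.4% were lower and 32.7% higher in ID8, and 30.6% lower and 33.9% higher in ID8-FSHR. Siglecg does not stand for the whole list. Plscr1 averaged 26.3, 27.3 and 32.8 CPM in ID8-FSHR, ID8 and uninjected lavage, and Myof 694, 784 and 312 CPM. The 8 genes summed to 772 to 937, 849 to 955 and 837 to 914 CPM in the same order. Within uninjected lavage the B cell sums were 2942, 3104, 3777 and 3874 CPM in replicates 1 to 4. These sums are not divided by Cd3e, so their order cannot be set against that of the Cd5 to Cd3e ratio. Cd3e itself was lowest in uninjected replicate 1, at 288 counts, against 883, 591 and 495 in uninjected replicates 2 to 4. The part of B-1 cells in the Cd5 result was not tested.

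For the other members the ratio to Cd3e overlapped between all groups. Cd4 counts per 100 Cd3e counts averaged 117 ± 14.1 in ID8-FSHR, 114 ± 8.15 in ID8 and 139 ± 31.1 in uninjected lavage, and Lck 203 ± 47.0 in ID8-FSHR, 179 ± 31.6 in ID8 and 203 ± 31.2 in uninjected lavage. Zap70 counts per 100 Cd3e counts were 40.5, 53.2, 54.6 and 60.6 in ID8-FSHR replicates 1 to 4, 37.0, 41.2, 34.7 and 30.4 in ID8 replicates 1 to 4, and 39.6, 47.6, 48.4 and 41.0 in uninjected replicates 1 to 4. Of the ID8-FSHR libraries 3 lay above all ID8 and uninjected values and the other, replicate 1, inside the range of both, for a log2 difference of 0.54 from ID8 (exact permutation p = 0.0571, adjusted p = 0.229). Over the 8 members other than Cd5 the ratio to Cd3e gave no p under 0.05 in any comparison.

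**Figure D3:**
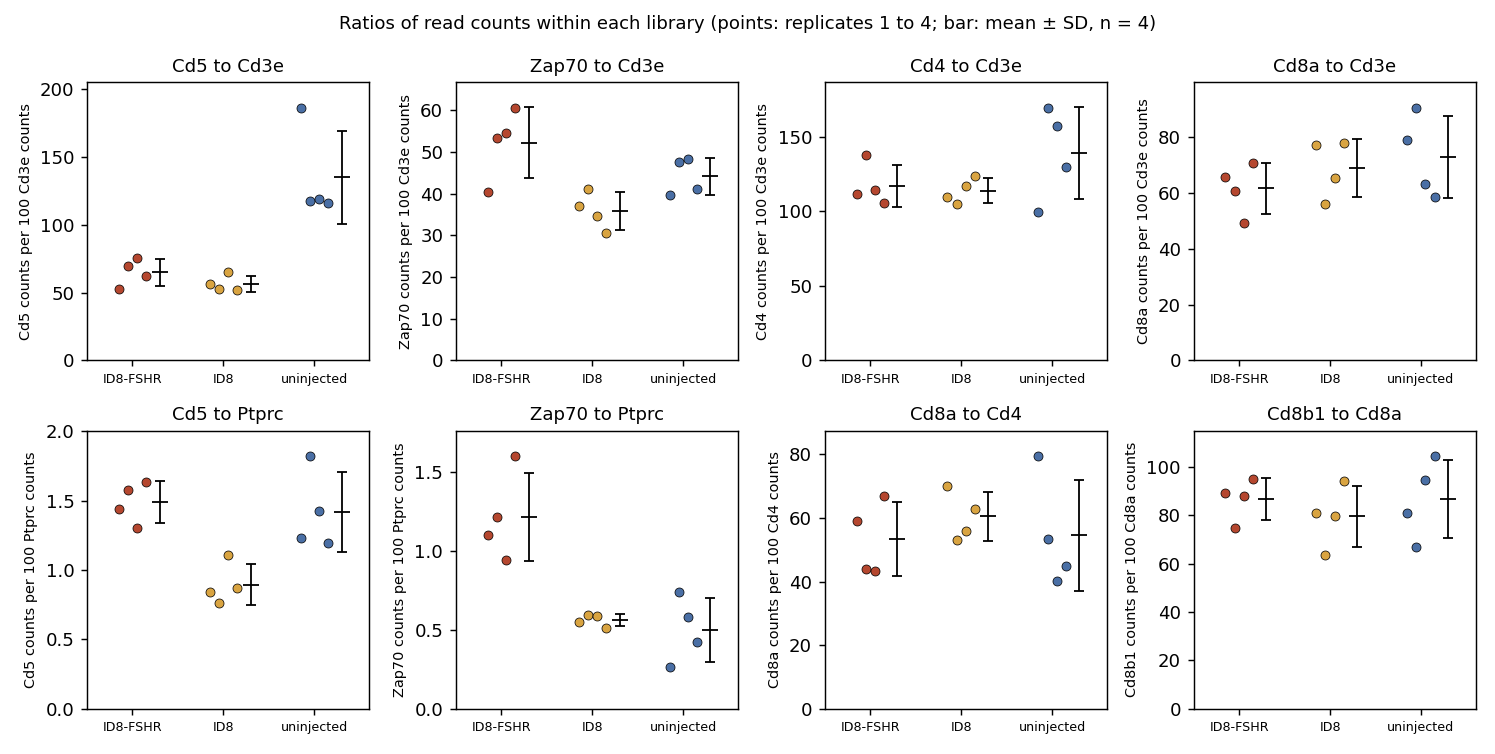
Ratios of read counts inside each library for 8 pairs of genes, as counts of the first gene per 100 counts of the second, on linear axes from 0; points are libraries and bars give the mean ± SD of 4. The uninjected points lie above both tumour groups for Cd5 to Cd3e, and the ID8-FSHR points lie above the ID8 points for Cd5 and Zap70 to Ptprc. The Cd8a to Cd4 and Cd8b1 to Cd8a panels show groups that overlap.

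Set against Ptprc, the CD45 phosphatase that all leukocytes carry, the fall in ID8 lavage looked different. Ptprc itself averaged 535 ± 156 CPM in ID8-FSHR, 369 ± 27.1 in ID8 and 989 ± 90.7 in uninjected lavage (SD, n = 4 each). It was lower in ID8, at -1.42 (edgeR adjusted p = 7.06e-06), and in ID8-FSHR, at -0.89 (edgeR adjusted p = 0.000372), than in uninjected lavage. Mesothelial and tumour genes such as Wt1 were higher in both tumour groups than in uninjected lavage (8 genes, summing to 1638 to 4925 CPM in ID8-FSHR, 5947 to 7555 CPM in ID8 and 8.78 to 13.1 CPM in uninjected lavage). Lck counts per 100 Ptprc counts averaged 4.70 ± 1.32 in ID8-FSHR, 2.83 ± 0.506 in ID8 and 2.22 ± 0.756 in uninjected lavage. Of the 9 members only Cd5 had a lower ratio to Ptprc in ID8 than in uninjected lavage, with a log2 difference of -0.66 (exact permutation p = 0.0286, adjusted p = 0.286). The other 8 differences were between 0.26 for Themis and 0.52 for Cd6, all above 0 and none with a p under 0.05.

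In ID8-FSHR against uninjected, the log2 ratio to Ptprc was higher by 1.10 for Lck, 1.36 for Zap70 and 1.07 for Lat, each without overlap between the groups (each exact permutation p = 0.0286, adjusted p = 0.143). Against ID8 it was higher by 0.71 for Lck, 1.09 for Zap70, 0.72 for Lat and 0.74 for Cd5, also without overlap (each exact permutation p = 0.0286, adjusted p = 0.143). Zap70 counts per 100 Ptprc counts were 1.10, 1.21, 0.945 and 1.60 in ID8-FSHR replicates 1 to 4, 0.551, 0.598, 0.591 and 0.515 in ID8 replicates 1 to 4, and 0.262, 0.737, 0.581 and 0.421 in uninjected replicates 1 to 4. The ID8 values were nearly constant, and each ID8-FSHR value lay above every value of the other groups. By the exact permutation test 0 of the 20 ratios passed after adjustment in any comparison. An unadjusted p under 0.05 was found for 2 in ID8 against uninjected, 4 in ID8-FSHR against uninjected and 4 in ID8-FSHR against ID8. So few ratios at the smallest p could not pass the adjustment, and the count of 0 does not show that the ratios are alike.

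NK cell markers rose in ID8-FSHR lavage. The 9 NK markers summed to 31.1, 168, 86.5 and 214 CPM in ID8-FSHR replicates 1 to 4, 46.2, 19.5, 15.6 and 24.8 CPM in ID8 replicates 1 to 4, and 22.8, 23.6, 25.3 and 35.0 CPM in uninjected replicates 1 to 4. ID8-FSHR replicate 1 lay inside the range of the other groups and the other 3 above it. Of all tested genes 6.04% were higher in ID8-FSHR than in ID8. All 9 NK markers were, among them Ncr1, the NKp46 receptor, at 2.34 (edgeR adjusted p = 0.0186), and the transcription factor Eomes at 2.02 (edgeR adjusted p = 0.00687). Without ID8 replicate 3 or 4 the count was 5 and 4, and without ID8-FSHR replicate 2 or 4 it was 5 in each case, as with limma-voom. All 9 were higher than in uninjected mice too, where 33.9% of all tested genes were higher. In that comparison limma-voom called 7, and leaving out single libraries gave 7 to 9. ID8-FSHR replicates 2 and 4, with the most NK RNA, also had the highest levels of all 9 members and the highest sums of the T cell receptor genes in the group. NK cells share Lck, Zap70 and Lat. The part of NK cells in the ID8-FSHR result was not tested, for these genes or for those of the receptor complex, Cd247 among them.

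Markers of mast cells, which share Lat, and of dendritic cells, which share Cd4 and Cd8a, were at their highest sums in uninjected lavage. The 8 mast cell markers summed to 575 to 909 CPM in ID8-FSHR, 803 to 1013 CPM in ID8 and 916 to 1432 CPM in uninjected lavage, with 1 of 8 lower and 0 higher in ID8-FSHR against ID8 by edgeR (0 higher at an unadjusted p under 0.05, 0 with DESeq2 and 0 with limma-voom). Of all tested genes 5.56% were lower and 6.04% higher in ID8-FSHR against ID8. The 8 dendritic cell markers summed to 37.3 to 47.7 CPM in ID8-FSHR, 49.4 to 64.0 CPM in ID8 and 62.8 to 101 CPM in uninjected lavage. Cd209a, with the highest uninjected mean of that list, averaged 9.92 CPM in ID8-FSHR, 23.0 in ID8 and 51.0 in uninjected lavage. Zbtb46 went the other way, at 22.0, 25.7 and 7.70 CPM in the same order. Xcr1 was nearly level, at 0.561, 0.622 and 0.612 CPM, so the sum does not stand for each marker. Against uninjected lavage 4 of 8 mast cell markers were lower and 1 higher in ID8, and 3 of 8 dendritic cell markers lower and 1 higher. In that comparison 31.4% of all tested genes were lower and 32.7% higher. No marker of the NK, B, B-1, mast or dendritic cell lists was at 0 in any library. The part of mast and dendritic cells in the falls of Lat, Cd4 and Cd8a was not tested.

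**Figure D4:**
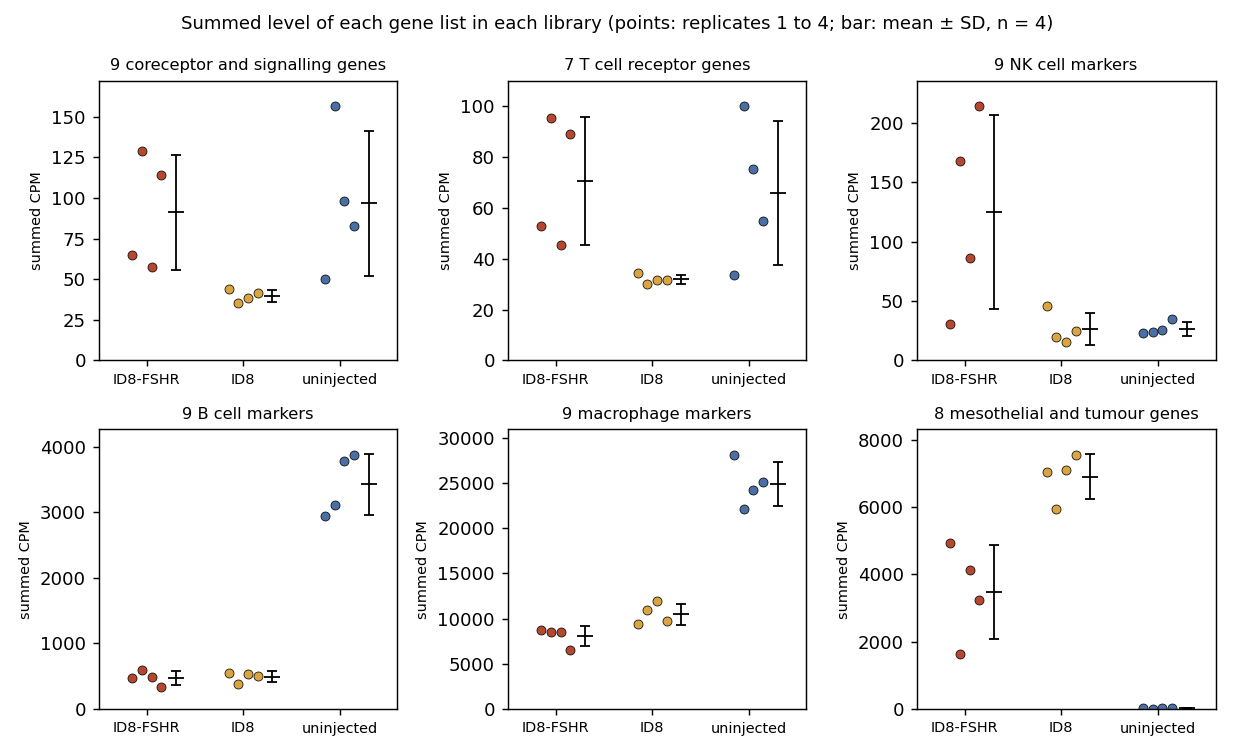
Summed CPM of 6 gene lists in each library, on linear axes from 0; points are libraries and bars give the mean ± SD of 4. The 9 genes and the T cell receptor genes are both high in ID8-FSHR replicates 2 and 4 and in uninjected replicate 2, NK markers are high in 3 of 4 ID8-FSHR libraries, B cell and macrophage markers are high in uninjected lavage, and mesothelial and tumour genes are near 0 there.

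Beyond the 9 members, 44 further genes of the proximal pathway of the receptor were tested. In ID8 against uninjected 36 were lower and 3 higher, with a median log2 fold change of -0.89. Over all tested genes 31.4% were lower and 32.7% higher, with a median of -0.03. Among the largest falls were those of the phosphatase Ptpn22 (-2.72), the Ras activator Rasgrp1 (-2.57) and the adaptor Lax1 (-2.48), each with an edgeR adjusted p of at most 7.63e-08. Each of these 3 fell by more than any of the 9 members. B cells also express them, and the part of B cells in these falls was not tested. The 3 that rose were the adaptor Nck2 (1.32), the phospholipase Plcg1 (0.63) and the kinase Fyn (0.36), all of them made by many cell types.

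In ID8-FSHR against uninjected 29 of the 44 were lower and 5 higher, with a median of -0.50. Over all tested genes 30.6% were lower and 33.9% higher, with a median of 0.0008. Ptpn22 (-2.23), Rasgrp1 (-2.20) and the paracaspase Malt1 (-1.77) were among those that fell most. Sh2d1a, the adaptor SAP of T and NK cells (1.47, edgeR adjusted p = 0.0155), Nck2 (1.22), the adaptor Sh2d2a (0.99, edgeR adjusted p = 0.0375) and Fyn (0.69) rose most.

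In ID8-FSHR against ID8, 9 of the 44 were higher and 0 lower by edgeR (1 at an unadjusted p under 0.05, 1 with DESeq2, 0 with limma-voom). The median was 0.33, against 1.16 for the 9 members and -0.01 for all tested genes, of which 6.04% were higher and 5.56% lower. The largest increases were in Sh2d2a, at 1.74 (edgeR adjusted p = 0.0141), the adaptor Sit1, at 1.51 (edgeR adjusted p = 0.0171), the kinase Txk, at 1.35 (edgeR adjusted p = 0.0211), and the protein kinase C isoform Prkcq, at 1.28 (edgeR adjusted p = 0.0154). Sit1 averaged 0.802 ± 0.280 CPM in ID8-FSHR and 0.278 ± 0.0836 CPM in ID8, so it rests on few reads. The count of 9 was 5 without ID8 replicate 3, 4 without ID8 replicate 4 and 21 without ID8-FSHR replicate 1. A list of 12 homologous genes of B and myeloid cells, such as Syk, the relative of Zap70, and Lat2, the relative of Lat, had a median of -1.25 in ID8 against uninjected, -0.99 in ID8-FSHR against uninjected and 0.33 in ID8-FSHR against ID8. Of these 12, 11 were lower in ID8 and 8 in ID8-FSHR than in uninjected lavage, with Syk at -1.89 (edgeR adjusted p = 1.29e-07) and -1.81 (edgeR adjusted p = 1.95e-07), and between ID8-FSHR and ID8 1 was higher, Pstpip2, and 2 lower, Blnk and Rasgrp3. Of all tested genes 31.4% were lower in ID8 and 30.6% in ID8-FSHR than in uninjected lavage.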

How the data were processed

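Cells from peritoneal lavage were sequenced in bulk after depletion of ribosomal RNA from 100 ng of RNA, per the labels' protocols. The deposited table holds raw read counts per gene for 12 libraries, which the authors did not normalize as far as the values show. The submitters' processing notes list bcl2fastq 2.20, STAR 2.7.9a, Subread 1.6.4 with featureCounts, and the build GRCm38.p6. The strand setting and the annotation release were not given in the sources used here. Of the gene identifiers, 54349 of 55401 are in GENCODE M21, from which coordinates and exon lengths were taken.

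Groups came from the labels. Counts were tested in R 4.3.3 with edgeR 4.0.16 (robust quasi-likelihood fit of all 12 libraries, group term, TMM scaling, default filter). Ratios of 2 genes were compared with two-sided exact permutation tests (scipy 1.17.1). The code was tested on simulated data. Same-numbered libraries were not taken as pairs, since no label says that a number is shared between groups. Alternatives used DESeq2 1.42.0, limma-voom (limma 3.58.1), other scalings and filters, a replicate block, and fits with each library left out in turn. Leaving libraries out of the counts over gene lists was chosen after seeing the data.

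The members and gene lists were chosen with earlier results of these data known. Named genes were the 9 members, the receptor complex, Ptprc, the CD6 ligands, the 4 largest changes in each direction of the proximal pathway, and for each member the 3 genes nearest to it among those with a mean of at least 1 CPM that are not predicted gene models. Some genes that this rule selects are not reported here. Marker genes named as examples from the other lists were chosen after their values were seen. Libraries of a group all differed by more than sampling noise.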

Additional observations from a re-analysis of the deposited data

Results flagged for a closer look

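The ratio of Cd5 to Cd3e was 186 per 100 counts in uninjected replicate 1, far from the 116 to 119 of the other 3 uninjected libraries, a gap of 0.958 of the group's range. It was 1 of 87 groups of 4 values looked at, where chance alone flags about 1 in 20. That library had the lowest level of all 9 genes in its group, and without it the uninjected ratio still lay above every tumour library.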

How the results depend on the processing

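In ID8 against uninjected, 5 to 9 members were called lower when single libraries were left out, 5 being without uninjected replicate 2. With limma-voom 6 were called, with no filter 7, and 8 with median-of-ratios size factors, only the 2 groups compared, or the replicate block. In ID8-FSHR against uninjected every setting called Cd5 alone. Members with no call there changed sign in places, never past the threshold. Cd8b1 gave 0.0314 with median-of-ratios size factors, 0.0337 with DESeq2 and 0.000352 with no filter. Cd6 gave 0.0209 with median-of-ratios size factors, 0.0239 with DESeq2, 0.14 with limma-voom and 0.0110 with the replicate block. With libraries left out, Cd4 ran from -0.44 to 0.21, Cd8a from -0.28 to 0.36, Cd8b1 from -0.23 to 0.22, Lat from -0.0796 to 0.40, Themis from -0.75 to 0.0697 and Cd6 from -0.32 to 0.43. In ID8-FSHR against ID8, DESeq2 called 7 members higher instead of 4, and leaving out libraries gave 2 to 6. Of all tested genes, 1021 were higher and 941 lower in that comparison. DESeq2 called 1473 lower, a fit of only the 2 groups 604 lower, and an adjusted p under 0.01 left 428 higher and 279 lower. Leaving out libraries gave 555 to 1731 higher and 406 to 1405 lower. The cause of these shifts was not tested.

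No label says that the replicate numbers pair the libraries, and correlations alone cannot decide it. Deviations of same-numbered libraries correlated between -0.217 and 0.352, 2 of 12 pairs were above 0.1, and 3 of 12 libraries correlated best with their own number. With the replicate block 4 members were higher in ID8-FSHR than in ID8, as without it. Leaving out a library makes the ratio tests too small to reach the threshold, so only their differences were recomputed; none moved by more than its spread between libraries. Another scaling moved the median of all genes by at most 0.061.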

Other observations

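Beyond the members, some T cell state genes differed between the tumour groups. Foxp3, the transcription factor of regulatory T cells, averaged 5.61 ± 1.64 CPM in ID8-FSHR, 2.08 ± 0.628 CPM in ID8 and 1.63 ± 0.269 CPM in uninjected lavage (SD, n = 4 each). It was higher in ID8-FSHR than in ID8, with a log2 fold change of 1.43 (edgeR adjusted p = 0.00466), and than in uninjected lavage, at 1.78 (edgeR adjusted p = 7.87e-05). Cd28, the costimulatory receptor, averaged 2.59 ± 0.742 CPM in ID8-FSHR, 0.930 ± 0.279 CPM in ID8 and 2.73 ± 0.588 CPM in uninjected lavage. It was lower in ID8 than in uninjected lavage, at -1.55 (edgeR adjusted p = 0.00038), and higher in ID8-FSHR than in ID8, at 1.47 (edgeR adjusted p = 0.00607). S1pr1, which guides lymphocytes out of tissue, and Ccr7, the homing receptor for lymph nodes, were lower in both tumour groups than in uninjected lavage. S1pr1 had log2 fold changes of -2.48 (edgeR adjusted p = 2.97e-08) in ID8-FSHR and -2.29 (edgeR adjusted p = 5.08e-08) in ID8, and Ccr7 of -1.16 (edgeR adjusted p = 0.00307) and -1.61 (edgeR adjusted p = 0.00031). B cells express both of these too, and the part of B cells in these falls was not tested. Foxp3, Cd28, S1pr1 and Ccr7 are from a list of 16 T cell genes. By edgeR 0 of the 16 were higher and 12 lower in ID8 than in uninjected lavage, and 2 higher and 6 lower in ID8-FSHR. Over all tested genes 32.7% were higher and 31.4% lower in ID8, and 33.9% higher and 30.6% lower in ID8-FSHR. Between ID8-FSHR and ID8, 5 of the 16 were higher and 0 lower, where 6.04% of all tested genes were higher and 5.56% lower. Ctla4, also on the list, averaged 1.83 ± 1.00 CPM in ID8-FSHR, 0.508 ± 0.275 CPM in ID8 and 3.91 ± 0.777 CPM in uninjected lavage. The genes named here were chosen after their values were seen.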
